A study of Rattus norvegicus with 8 samples.

Results

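The extracellular matrix genes described here are the chondroitin sulfate proteoglycans Ncan, Bcan, Vcan, Acan, Cspg4 and Cspg5, the tenascins Tnc and Tnr, and the link proteins Hapln1 and Hapln4. They were chosen by name as a family of brain matrix genes. Of the 10 listed genes, 9 had a row among the 26405 Ensembl identifiers of each deposited table, on 11 identifiers. The table's own symbol matched 6 identifiers and the Entrez identifier, read through the RefSeq gene table of assembly GRCr8, matched another 5: the other Ncan identifier, Bcan, Vcan and both identifiers of Hapln4. Tnr matched no row and is not analysed here. Both Hapln4 identifiers (ENSRNOG00000049949 and ENSRNOG00000050507) hold the same values in each table and are counted once, which leaves 10 distinct identifiers.

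Lecticans (Ncan, neurocan; Bcan, brevican; Vcan, versican; Acan, aggrecan) are secreted proteoglycans that bind hyaluronan at one end and tenascins at the other, and carry chondroitin sulfate chains between. Link proteins of the Hapln family hold the lectican on hyaluronan, and tenascin-R joins lecticans to each other. In the adult brain such matrix is densest in perineuronal nets, the coats around many inhibitory neurons. In the developing brain and around growing axons, chondroitin sulfate proteoglycans are known for limiting axon growth through receptors such as Ptprs.

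RNA was sequenced from hippocampal neurons of rat embryos, cultured for 10 to 14 days in microfluidic chambers that separate axons from cell bodies. The axonal side alone received soluble oligomers of Abeta(1-42), the amyloid peptide, or vehicle for 24 h. The 4 groups (axons Abeta, axons control, soma Abeta, soma control; the soma samples hold cell bodies and their neurites) had 2 samples each. The labels used here name no strain and give no sign of whether duplicates were separate cultures; p-values cover the spread among these samples, which may be technical.

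Each deposited table compares the treatments within 1 compartment, without stating the numerator. A gene with a deposited log2 fold change above 0 is therefore said to lie on the plus side and one below 0 on the minus side, and no value below says in which direction Abeta moved a transcript. Whole reads per library were worked out from the digits of the deposited means. Each library could be placed on a side but not matched to a sample title, so libraries are numbered within a side. Normalized counts are reads divided by the library's size factor, and they are not corrected for gene length, so levels of different genes are not ranked against each other. The axonal size factors were 1.32 and 1.28 on the plus side, and 0.952 and 0.740 on the minus side. In cell bodies each side held a deep and a shallow library, with size factors of 2.97 and 0.297 on the plus side and 3.74 and 0.320 on the minus side. Neuronal markers were present in axons and cell bodies (8 of 8 in each), and so were markers of astrocytes (9 of 9 matched genes).

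Ncan was the member that differed between the treatments in axons. On its identifier ENSRNOG00000020448 it had 1105 and 1432 normalized counts in the plus-side axonal libraries and 294 and 288 in the minus-side ones, from 1462, 1830, 280 and 213 reads. The sides were far apart, and the minus-side libraries lay close together. The side means were 1269 ± 231 and 291 ± 4.53 normalized counts (SD, n = 2 each). In the authors' deposited table (DESeq2) the log2 fold change was 2.06 (SE 0.37, adjusted p = 5.48e-06), a 4.16-fold difference. The other identifier, ENSRNOG00000048036, had 816 and 1017 normalized counts on the plus side and 215 and 215 on the minus side. Its deposited log2 fold change was 2.02 (SE 0.38, adjusted p = 1.12e-05, DESeq2). Among the 1321 axonal genes to which the authors gave an adjusted p, 8.78% were called on the plus side at 0.05, and both Ncan identifiers were among them. RNA of fewer cells of a type and less RNA per cell cannot be told apart in such bulk samples.

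The Ncan identifiers carry 1 Entrez identifier and are not independent measurements. The reads of ENSRNOG00000048036 were 71.0% to 74.7% of those of ENSRNOG00000020448 in the 4 axonal libraries. In cell bodies they were 59.8% and 58.1% in the deep libraries and 69.7% and 70.0% in the shallow ones. Whether reads were shared between them in counting is not given in the sources used here.

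**Figure D1:**
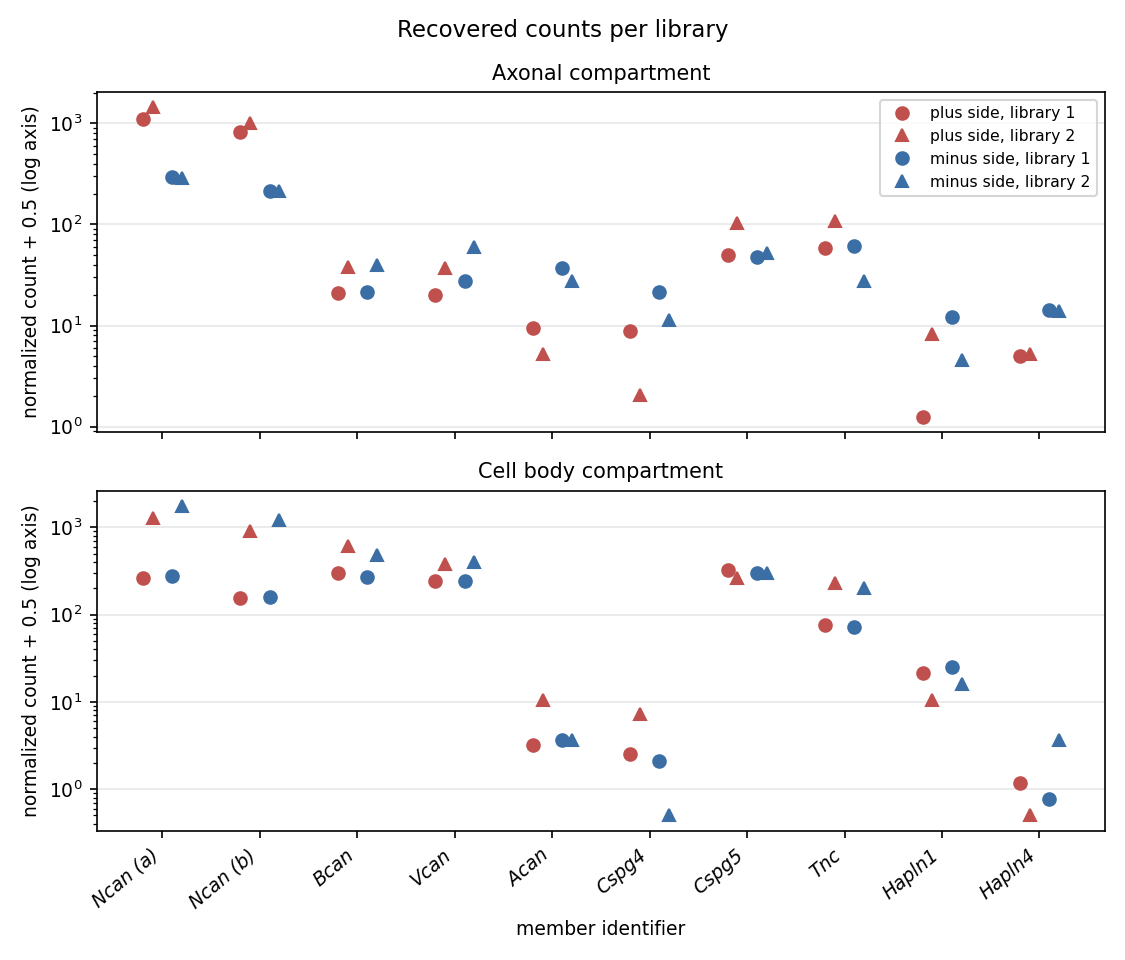
Normalized count plus 0.5 (log axis) of each distinct member identifier in each of the 4 axonal (top) and 4 cell body (bottom) libraries; colour gives the side of the deposited fold change and shape the library number (circle 1, triangle 2), and Ncan (a) and (b) are ENSRNOG00000020448 and ENSRNOG00000048036. In axons Ncan (a) lies at 1105 and 1432 on the plus side and at 294 and 288 on the minus side, while in cell bodies it lies by depth, at 260 and 274 in the deep and 1290 and 1749 in the shallow libraries.

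The other lecticans did not follow Ncan in axons. Brevican, a lectican of the postnatal brain made largely by glia, had 20.4 and 37.6 normalized counts on the plus side and 21.0 and 39.2 on the minus side. The sides overlapped almost fully. Its deposited log2 fold change was -0.04 (SE 0.70), with a 95% interval from -1.42 to 1.34. Versican, the widely expressed lectican of embryonic matrix, had 19.7 and 36.8 against 27.3 and 59.4 normalized counts, again with overlapping sides, and its deposited log2 fold change was -0.54 (SE 0.68, interval -1.87 to 0.79). The authors' table gives neither an adjusted p, since its adjusted values start at a mean of 44.8 normalized counts and Bcan and Vcan had axonal means of 29.5 and 35.8. The Bcan interval reaches past a log2 difference of 1 on either side, so it does not exclude a 2-fold difference in either direction.

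Aggrecan, the lectican most typical of perineuronal nets, lay to the opposite side of Ncan. It had 9.07 and 4.70 normalized counts in the plus-side axonal libraries and 36.8 and 27.0 in the minus-side ones, from 12, 6, 35 and 20 reads. Every minus-side value was above every plus-side value. The deposited log2 fold change was -1.84 (SE 0.79) with an unadjusted p of 0.0196 and no adjusted p, and it was not called. Adjusted over all genes with a mean of at least 10 its p became 0.317. Over all axonal genes, 2.59% had an unadjusted p under 0.05 on the minus side, and Acan was 1 of 10 distinct members to do so.

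The transmembrane proteoglycans were not called in axons. Cspg4 (NG2), carried by oligodendrocyte precursors and pericytes, had 8.31 and 1.57 normalized counts on the plus side and 21.0 and 10.8 on the minus side. The sides did not overlap, but they rest on 41 reads in all. Its deposited log2 fold change was -1.23 (SE 0.94), without an adjusted p. Markers of oligodendrocyte precursors summed to 40.8 and 15.7 against 52.5 and 27.0 normalized counts (5 of 6 matched), and those of pericytes and mural cells to 34.0 and 61.0 against 79.8 and 47.3 (5 of 7 matched). None of those matched markers had an adjusted p, so none could be called. Of the matched precursor markers 4 lay below 0 and 1 above, Olig1 at 0.38. The lowest of them, Gpr17, stood at -2.34 (SE 1.06, unadjusted p = 0.0277, DESeq2) on a mean of 3.53, while Pdgfra stood at -0.15. Of the matched pericyte and mural markers 4 lay below 0 and 1 above, Tagln at 1.41 (SE 0.96). Tagln gave 42.3 of the 61.0 normalized counts in plus-side library 2. No matched marker of either list was at 0 in axons, and their part in the Cspg4 values was not tested. Cspg5 (neuroglycan C), a proteoglycan of neurons with an EGF-like domain, had 49.9 and 102 against 47.3 and 51.3 normalized counts. One plus-side library lay above the rest and the sides overlapped. The deposited log2 fold change of Cspg5 was 0.57 (SE 0.58, adjusted p = 0.534, DESeq2).

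Tenascin-C, a matrix glycoprotein of astrocytes and radial glia that binds lecticans, had 58.2 and 107 normalized counts in the plus-side axonal libraries and 60.9 and 27.0 in the minus-side ones. The sides overlapped, with each side holding a value near 60. In the authors' deposited table Tnc stood at 0.82 (SE 0.60, adjusted p = 0.370, DESeq2) on the log2 scale. Its interval of -0.35 to 2.00 reaches nearly to the Ncan value.

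Link proteins had few axonal reads. Hapln1 had 0.756 and 7.83 normalized counts on the plus side and 11.6 and 4.05 on the minus side, from 25 reads in all, with a deposited log2 fold change of -0.55 (SE 1.03). Its sides overlapped and its single read in one plus-side library allows no statement. Hapln4, which binds brevican in perineuronal nets, had 4.54 and 4.70 against 13.7 and 13.5 normalized counts, from 6, 6, 13 and 10 reads. The sides of Hapln4 did not overlap, yet the deposited log2 fold change of -1.15 (SE 0.93, unadjusted p = 0.218) was not called.

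Each lectican gene lies next to a link protein gene in the RefSeq order, with 0 protein-coding genes between them: Ncan with Hapln4, Vcan with Hapln1, Bcan with Hapln2 and Acan with Hapln3. Ncan and its neighbour Hapln4 had deposited axonal log2 fold changes of opposite sign, 2.06 and -1.15. Vcan and Hapln1 stood at -0.54 and -0.55. Bcan stood at -0.04 and Hapln2, on an axonal mean of 0.580 normalized counts, at 0.52 (SE 0.78). Acan stood at -1.84 and Hapln3, on a mean of 3.32, at -0.62 (SE 1.06). Of these genes Ncan alone was called, and the differences within pairs were not tested.

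In all, 2 of the 10 distinct member identifiers were called in axons, both of Ncan, out of the 4 identifiers of 3 genes that had an adjusted p. Fold changes lay above 0 for 4 and below 0 for 6. The median over the members was -0.29 on the log2 scale, with a range from -1.84 to 2.06, beside a median of -0.13 over the 23879 genes with axonal reads. Sides did not overlap for 5 of the 10 (both Ncan identifiers, Acan, Cspg4 and Hapln4), beside 44.3% of recovered axonal genes with a mean of at least 2, so that share is near the background. Genes whose somatic mean reached 100, among them Ncan, Bcan, Vcan, Cspg5 and Tnc, lay at a median of 0.44 on the axonal log2 scale. Relative to that shift Ncan stood at 1.62 and 1.58, Tnc at 0.39, Cspg5 at 0.13, Bcan at -0.48 and Vcan at -0.98.

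**Figure D2:**
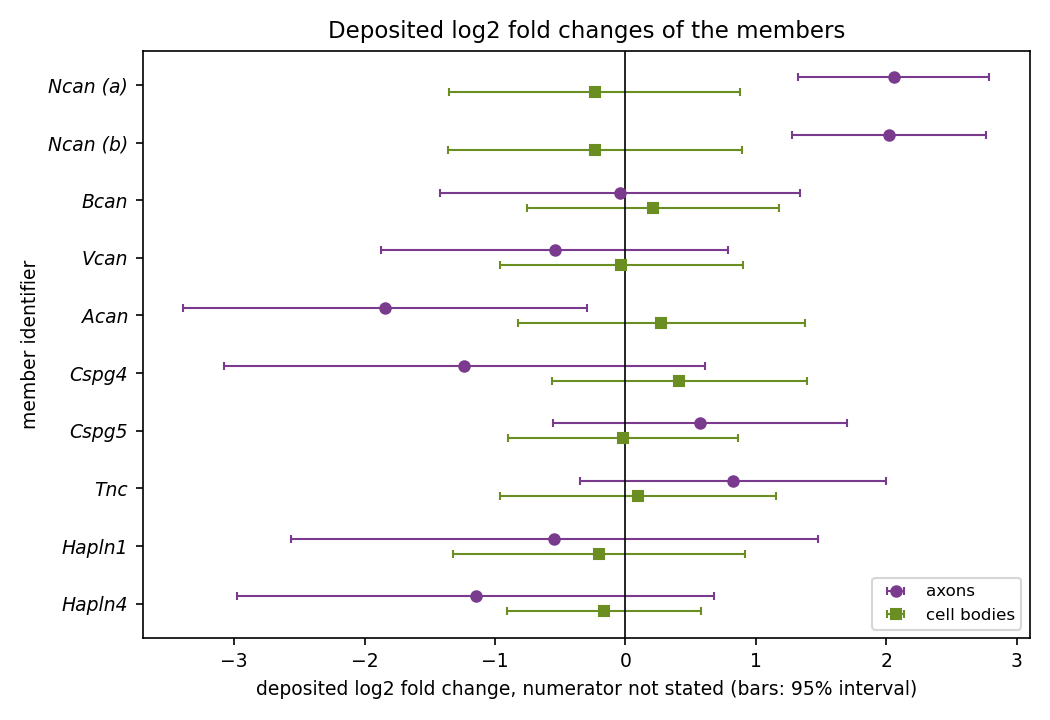
Deposited log2 fold change (x axis, numerator not stated) of each distinct member identifier (rows) in axons (circles) and cell bodies (squares), with bars for the 95% interval from the deposited standard error. The Ncan values in axons, 2.06 and 2.02, and the Acan value, -1.84, have intervals that leave out 0; every interval in cell bodies spans 0.

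In cell bodies no member was called. The deposited adjusted p (DESeq2) was 1.00 for each of the 10 distinct identifiers, and 0 of them had an unadjusted p under 0.05. Of the 18995 genes tested 0% were called, and 2 genes in the whole table were under an unadjusted 0.05. A calibrated test would put a share of about 0.05 of unchanged genes under that threshold. The somatic test was far stricter, so its lack of calls does not show that cell bodies were unchanged. The somatic log2 fold changes ran from -0.24 (Ncan) to 0.41 (Cspg4), with a median of -0.03 beside -0.02 over all genes. Over all genes they ran from -1.09 to 1.10, against -3.67 to 4.73 in axons. For Cspg4 and Hapln4 the deposited somatic values were 0.41 and -0.16. The log2 ratios of their recovered side means were 1.91 and -1.39 with a pseudocount of 0.5, and 0.69 and -0.33 with 5. A small deposited value for a gene with few reads therefore does not show a small difference. Fold changes lay above 0 for 4 and below 0 for 6 members. Sides did not overlap for 1 member, Cspg4, on 14 reads, beside 17.6% of recovered somatic genes with a mean of at least 2.

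Library depth, not side, ordered several members in cell bodies. Ncan (ENSRNOG00000020448) had 260 and 274 normalized counts in the deep libraries of the plus and minus side and 1290 and 1749 in the shallow ones. The shallow value was 4.95-fold the deep one on the plus side and 6.37-fold on the minus side, and 97.9% and 98.2% of the 2564 recovered genes whose somatic mean reached 100 gave a lower ratio. For ENSRNOG00000048036 the ratios were 5.76 and 7.66. Tnc had 75.4 and 72.4 normalized counts in the deep and 229 and 203 in the shallow libraries, or 3.02-fold and 2.80-fold. Bcan (298 and 267 deep, 613 and 485 shallow) and Vcan (244 and 243 deep, 384 and 404 shallow) had smaller ratios, from 1.57 to 2.05. Cspg5 did not follow this order, with 322 and 300 deep and 263 and 297 shallow. Hapln1 was lower in the shallow libraries, with 10.1 and 15.6 against 20.9 and 24.6 in the deep ones. Within a depth, the log2 ratio of the sides for Ncan was -0.08 in the deep pair and -0.44 in the shallow pair. The shallow libraries also held more of the fibroblast and meningeal markers, at 330 and 332 summed normalized counts against 111 and 99.7 in the deep ones. Fbln1 carried most of that sum (242 and 250 shallow, 73.8 and 61.2 deep), and Col1a1 and Col1a2 were also higher in the shallow libraries, while Lum (6.73 and 0 shallow, 13.1 and 10.7 deep) and Col3a1 (10.1 and 18.8 shallow, 17.5 and 19.8 deep) were lower. Astrocyte markers also summed higher in the shallow libraries, at 3051 and 2950 against 2356 and 2323, over the 7 genes recovered there. Among them Gja1 was lower (114 and 185 shallow, 300 and 304 deep) and Fgfr3 was mixed (33.7 and 40.7 shallow, 38.1 and 25.4 deep). Neuronal markers summed to 3300 and 3222 against 3525 and 3984, over 7 recovered genes. Microglial markers were lower in the shallow libraries, at 710 and 619 against 1235 and 948. What the shallow and deep libraries differ in is not given in the labels, and the part of depth in the Ncan values was not tested.

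**Figure D3:**
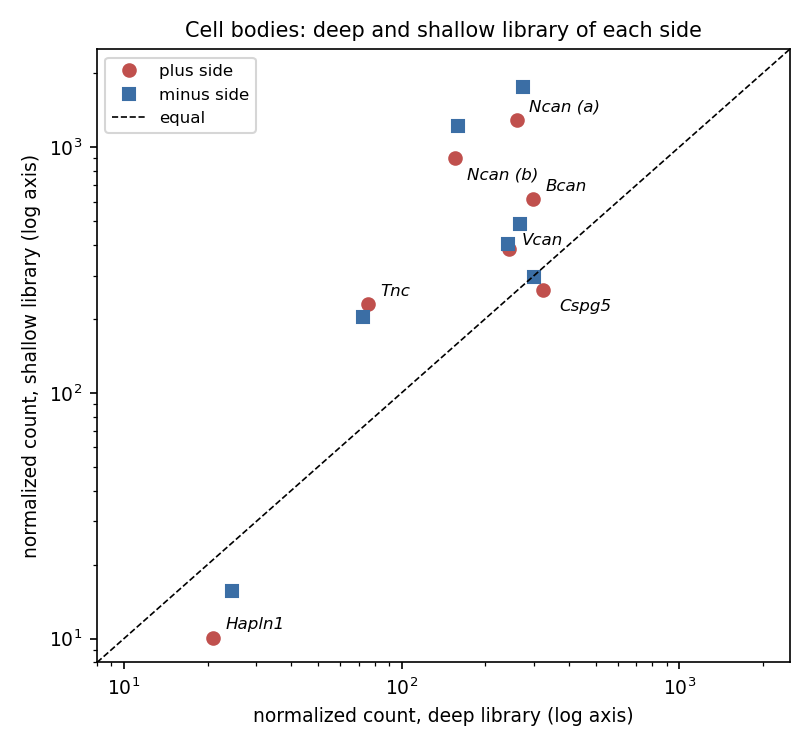
Normalized count in the shallow library (y, log axis) against the deep library (x, log axis) of the same side in cell bodies, for members whose somatic mean reached 10; circles are the plus and squares the minus side, and the dashed line marks equal values. Ncan and Tnc lie farthest above the line on each side, Cspg5 lies near it and Hapln1 below it.

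The axonal and somatic differences themselves did not differ past the threshold for any member. For Ncan the axonal minus the somatic log2 fold change was 2.29 (SE 0.68) and 2.25 (SE 0.69) on its identifiers, with adjusted p = 0.471 and 0.603 (Benjamini-Hochberg over 18406 genes, normal test on the deposited values). Over all genes 0.0326% of genes passed, and 0 of the 10 members. The unadjusted p of this normal test was under 0.05 for both Ncan identifiers, which are not independent, and for Acan. The Acan difference was -2.12 (SE 0.97, unadjusted p = 0.0288). The share of all genes under that unadjusted threshold is not given here, so no weight is put on these values. Each somatic side of Ncan (ENSRNOG00000020448) averaged 1 deep and 1 shallow library, with SDs of 728 and 1043 normalized counts. That spread enters the somatic SE of 0.57 and so this test, which took no account of depth. The deposited and the recovered log2 values of Ncan were 2.06 and 2.12 in axons, but -0.24 and -0.38 in cell bodies. The Ncan call in axons is therefore not shown to be particular to axons, nor shown to be shared with cell bodies.

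Levels in axons and cell bodies come from tables normalized separately and are set side by side only as a description. Bcan, Vcan and Cspg5 had somatic means of 416, 318 and 296 normalized counts and axonal means of 29.5, 35.8 and 62.6. Tnc stood at 145 in cell bodies and 63.3 in axons, and Hapln1 at 17.8 and 6.05. Ncan (ENSRNOG00000020448) had means of like size, 893 in cell bodies and 780 in axons, but each averages unlike libraries. Its deep cell body libraries held 260 and 274 normalized counts and its shallow ones 1290 and 1749. Its axonal side means were 1269 on the plus side and 291 on the minus side. For Acan, Cspg4 and Hapln4 the order turned: axonal means of 19.4, 10.4 and 9.10 stood against somatic means of 4.78, 2.59 and 1.02. Those are also the members that lay on the minus side without overlap. Genes read in axons alone (5473 identifiers) made up 2.80% and 1.25% of the recovered reads of the plus-side axonal libraries, against 5.59% and 4.62% on the minus side, and their part in the Acan, Cspg4 and Hapln4 values was not tested.

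Some markers of other cells moved with Ncan in axons. Astrocyte markers summed to 2126 and 2600 normalized counts in the plus-side libraries and 387 and 805 in the minus-side ones. Gfap alone gave 1228 and 1530 of those counts on the plus side and 158 and 375 on the minus side. Of the 9 matched astrocyte genes, 8 lay above 0 and 1 below, Slc1a2 at -0.82 (SE 0.89). On the plus side 4 of the 9 matched astrocyte genes were called, out of 6 with an adjusted p and beside 8.78% of all genes tested, namely Gfap (2.27), Aldoc (1.99), Gja1 (1.60) and Slc1a3 (1.54, deposited log2 fold changes), and 0 on the minus side; the list's median was 1.53. With p adjusted over every gene with a p, Gfap alone of these was called. Fibroblast and meningeal markers summed to 605 and 967 against 133 and 158, with 3 of 5 called on the plus side, the 3 that had an adjusted p (Col1a1 at 2.28, Col1a2 at 2.65 and Fbln1 at 2.59). The rest of that list, Col3a1 at -0.05 and Lum at -0.59, lay below 0 and had no adjusted p. Neuronal markers summed to 581 and 673 against 378 and 782, with 0 called of the 5 that had an adjusted p. Microglial markers summed to 56.7 and 23.5 against 95.6 and 149; none of the 7 had an adjusted p, so none could be called. Among them Csf1r stood at -1.83 (unadjusted p = 0.0116) on a mean of 26.8 and P2ry12 at -2.37 (unadjusted p = 0.0241) on a mean of 5.10. Of the 7 microglial markers, 6 lay below 0 and 1 above, Aif1 at 1.05 on a mean of 1.34. Interneuron genes, which include the net-bearing Pvalb cells, summed to 68.0 and 26.6 against 65.1 and 75.6, and none of the 7 had an adjusted p. No matched marker of these lists was at 0 in axons. Neurons and astrocytes both make neurocan, and the part of astrocyte or fibroblast RNA in the Ncan difference was not tested.

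None of the 22 matched enzymes that build chondroitin sulfate chains had an adjusted p in the authors' axonal table, so none could be called. Of them 10 lay above 0 and 12 below, with a median of -0.01. Chpf, a subunit of the chain-extending polymerase, stood at 2.25 (SE 0.71, unadjusted p = 0.00140) on a mean of 33.9, with 40.1 and 75.9 normalized counts on the plus side and 7.35 and 12.2 on the minus side. Its p adjusted over genes with a mean of at least 10 was 0.0726. Fam20b, a kinase that primes the linker of the chain, stood at -0.37 (SE 0.64).

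Genes that make, bind or degrade hyaluronan, the polymer that anchors lecticans, included 1 plus-side call among 12 matched genes (median 0.07, 6 above and 6 below 0), and the called gene was the only one with an adjusted p, beside 8.78% of all genes tested that were called on that side. Cd44, the main cell surface receptor for hyaluronan, stood at 1.96 (SE 0.55, adjusted p = 0.00675, DESeq2), with 135 and 110 normalized counts against 34.7 and 21.6. Its sides did not overlap. Hyal1, a lysosomal hyaluronidase, stood at 2.04 (SE 0.91, unadjusted p = 0.0252) without an adjusted p. Cemip2, a cell surface hyaluronidase, stood at 0.20 (SE 0.70). The hyaluronan synthases were low, with axonal means of 1.80 for Has1, 5.74 for Has2 and 4.33 for Has3.

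Receptors of chondroitin sulfate and tenascins had 0 calls among 12 matched genes, of which 4 had an adjusted p; their median was 0.28, with 9 above and 3 below 0. Ptprz1, a receptor phosphatase that is itself a chondroitin sulfate proteoglycan and binds tenascins, stood at 0.33 (SE 0.49, adjusted p = 0.681, DESeq2) on an axonal mean of 147. Ptprf, a phosphatase related to Ptprs, stood at 0.98 (SE 0.51, adjusted p = 0.177, DESeq2). Ptprs itself matched no row.

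Matrix proteases and their inhibitors had 1 plus-side call among 15 matched genes, of which 2 had an adjusted p, beside 8.78% of all genes tested that were called on that side. Their median was 0.28, with 8 above and 7 below 0. Timp3, an inhibitor of matrix metalloproteinases and lectican-cleaving Adamts proteases, stood at 1.89 (SE 0.67, adjusted p = 0.0244, DESeq2). Timp2 stood at 1.35 (SE 0.57, adjusted p = 0.0681, DESeq2). Without an adjusted p, Adamts1, an aggrecanase, stood at 2.09 (SE 0.70, unadjusted p = 0.00268), with 45.4 and 59.5 normalized counts against 10.5 and 9.45. The membrane-bound metalloproteinase Mmp14 stood at 1.60 (SE 0.64, unadjusted p = 0.0128), also without one. The other matched Adamts proteases had no adjusted p either, and most lay below 0. Adamts8 stood at -1.81 (SE 0.93, unadjusted p = 0.0507, DESeq2), with 5.29 and 1.57 normalized counts against 25.2 and 12.2. Adamts15 stood at -0.60, Adamts4 and Adamts5 at -0.19 each, and Adamts9 at 0.36. The other proteoglycans and tenascins had 1 plus-side call among 17 matched genes, of which 4 had an adjusted p (median 0.29, 12 above and 5 below 0), again beside 8.78% of all genes tested. The called gene was the small leucine-rich proteoglycan Bgn at 1.41 (SE 0.47, adjusted p = 0.0157, DESeq2). With p adjusted over genes with a mean of at least 10, Timp3 (0.125) and Bgn (0.0842) were no longer called; over every gene with a p, Cd44 (0.106) was not either. Gpc4, a glypican, stood at 1.82 (SE 0.72, unadjusted p = 0.0122) without an adjusted p. Agrn, a heparan sulfate proteoglycan of synapses and basement membranes, stood at 0.21 (SE 0.48, adjusted p = 0.795, DESeq2). In cell bodies 0 genes of these 5 lists were called.

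**Figure D4:**
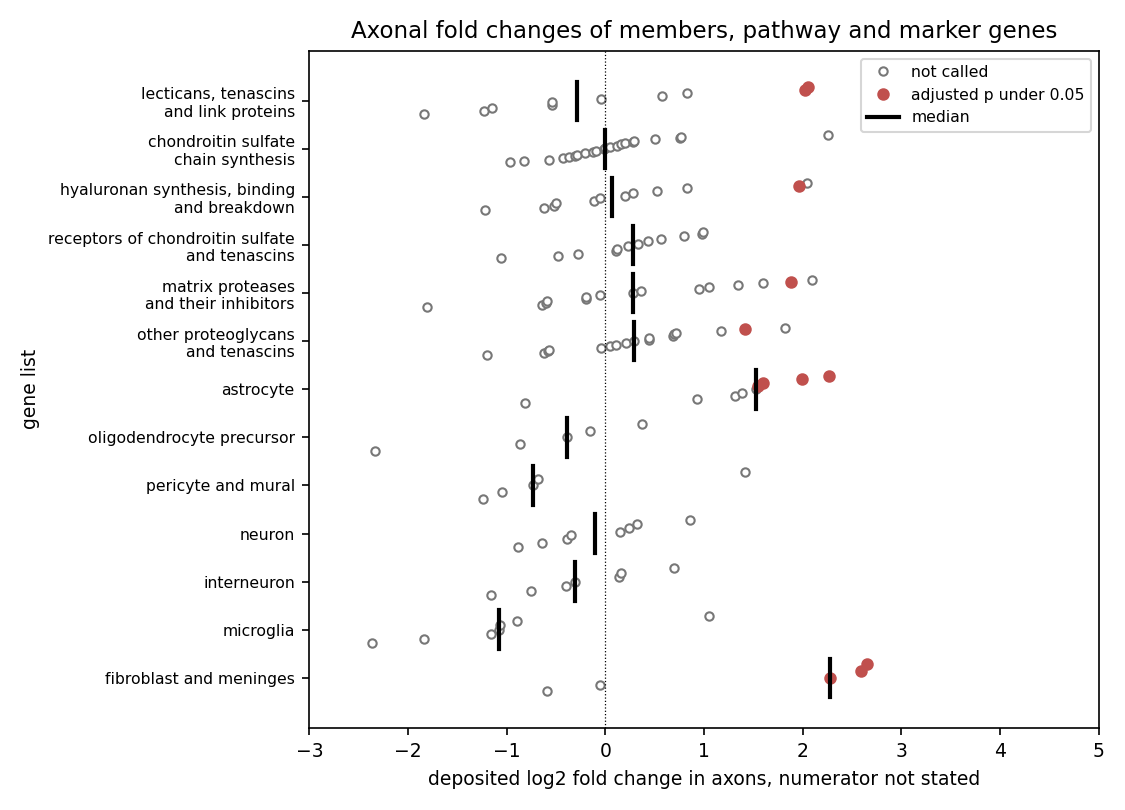
Deposited axonal log2 fold change (x axis, numerator not stated) of each gene in the matrix family, in 5 pathway lists and in 7 cell marker lists (rows); filled points have an adjusted p under 0.05, open points do not or have none, and bars are list medians. Ncan stands at 2.06 and 2.02 apart from the family's median of -0.29, and the astrocyte and fibroblast lists have medians of 1.53 and 2.28.

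The genes whose pattern over the 8 recovered libraries lay closest to Ncan (ENSRNOG00000020448) were found by Euclidean distance in log2(normalized count + 1), each gene centred within its table, among 674 named genes with means of at least 50 in both. They were Rnf10, a ubiquitin ligase, at a distance of 0.99, the laminin chain Lamc1 at 1.01, the matrix protein Fbln1 at 1.07, the large cadherin Fat1 at 1.11 and Reep5, a protein that shapes the endoplasmic reticulum, at 1.18. Their deposited axonal log2 fold changes were 1.20, 1.36, 2.59, 1.50 and 1.08 in that order. Lamc1, Fbln1 and Fat1 were called in axons by the authors' adjusted p and Rnf10 and Reep5 were not, beside 8.78% of all genes tested called on the plus side. All were picked by the same counts, so their plus-side fold changes and calls are not an independent result. The cell body libraries, where Ncan lay by depth, also entered the distance. With p adjusted over genes with a mean of at least 10, Lamc1 (0.144) and Fat1 were no longer called.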

How the data were processed

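The submitters' processing notes name Trim Galore, SAMtools, TopHat2 and DESeq2. For their versions, the genome build, the annotation and the counter: not given in the sources used here. Coordinates are left out. Per the file headers, each of the 2 deposited tables holds the authors' signal (gene counts over size factors, averaged across the 4 libraries of its compartment), their log2 fold change and its SE, a Wald score, a p-value and an adjusted p-value. Calls are the authors' (adjusted p under 0.05); no test of counts was run here.

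Each deposited mean, printed to 15 significant digits, is a sum of 4 whole read counts times a unit per library. Genes with 1 read gave the units, and means up to 1000 were solved for whole numbers within the last digit. All genes had exactly 1 solution up to a mean of 500, and from 500 to 1000 all but 1 somatic gene did; shifted decoys had a solution in 2.56% (axons) and 6.16% (soma) of cases there and in 0% below. Both the solver and the test below were run on simulated data. The solver was given the true size factors there, and the test was given independent normal noise with the deposited SEs. These runs therefore do not check the finding of the units or the normal assumption. Reads in recovered genes numbered 231854 to 425420 per axonal and 262971 to 3656302 per somatic library. Recovered libraries carry a side but no title and enter no test.

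The test between compartments took the difference of the deposited log2 fold changes over the root of their summed squared SEs, with a two-sided normal p and Benjamini-Hochberg adjustment over all genes (Python 3.11.15, scipy 1.17.1). Intervals are normal, from the deposited SE, around deposited values that for members with few reads were smaller in size than the recovered ratios. A symbol with several identifiers is represented in the lists by the one of highest axonal mean. Named genes were all members, the called genes of each list, and those of highest axonal mean (2 per pathway list, 3 per marker list, of which markers are named where they were called or their unadjusted p was under 0.05). Others were named after their values were seen: the Hapln neighbours, the Has genes, Ptprs, Hyal1, the Adamts genes, Mmp14, Gpc4, Gpr17, Olig1, Pdgfra, Tagln, Slc1a2, Fgfr3, Aif1, P2ry12, Lum and Col3a1. Members and lists were chosen with earlier results of these data known. Alternatives were other adjustment sets, a centring of fold changes, a threshold of 0.1, another pseudocount and scaling, and leaving out each library.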

Additional observations from a re-analysis of the deposited data

How the results depend on the processing

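Over the alternatives tried, 2 distinct member identifiers, both of Ncan, were called in axons in each: adjustment over genes with a mean of at least 10, over every gene with a p, after centring, and at a threshold of 0.1. The adjusted p of ENSRNOG00000020448 was 3.33e-05 and 9.91e-05 in the first and second of these. Of the 14 calls named in axons, 9 held when adjusted over genes with a mean of at least 10 (lost: Timp3, Bgn, Gja1, Lamc1, Fat1), 8 after centring (lost: those and Slc1a3) and 6 over every gene with a p (lost: those 6 and Cd44 and Aldoc). In soma, and for the difference between compartments, the count was 0 in each. The recovered log2 ratio of the axonal sides for Ncan (2.12 and 2.09) lay between 1.92 and 2.30 without any one library, and was 1.87 and 1.83 when scaled by reads in genes whose somatic mean reached 10. Leaving out 1 library changed the sign of that ratio for 3 of 10 axonal members (Bcan, Vcan and Hapln1, none of them called) and for 9 of 10 somatic ones, where it leaves a side with a single library of one depth. Without any one library the axonal ratio ran from -2.72 to 0.07 for Hapln1 (-0.79 with all 4), -2.99 to -0.90 for Cspg4 (-1.59), 0.40 to 1.60 for Tnc (0.90), 0.02 to 1.04 for Cspg5 (0.62), -1.12 to 0.05 for Vcan (-0.61) and -0.55 to 0.46 for Bcan (-0.05). No paired analysis was possible because the tables hold no column per sample and the recovered libraries carry no replicate number of the labels; the somatic ratios within a depth are given as values without a test. Leaving out a library could not be applied to the deposited tests. Depth limits the low members: Hapln1, Hapln4, Cspg4 and Acan rest on 25 to 73 axonal reads.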

Other observations

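Several genes of the wider matrix lists had a higher mean normalized count in axons than in cell bodies, as Acan, Cspg4 and Hapln4 did; the tables were normalized separately, these genes were named after their values were seen, and none but Bgn was called. Tnn, a tenascin, had an axonal mean of 14.5 and a somatic mean of 0.404, and Lyve1, a hyaluronan receptor of lymphatic vessels, had 5.18 and 0.369. Adamts4, an aggrecanase, had 24.2 and 7.52. Bgn had 147 in axons and 40.8 in cell bodies.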
